A study of Mus musculus with 2 samples.

Results

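The regions described here were 382 HIRA peaks of the embryonic mouse heart that lay between genes and were mostly free of masked repeats. They were 5.77% of the 6624 peaks of the list and 10.6% of its 3620 intergenic peaks. A peak was a member when its midpoint fell outside every GENCODE M21 gene body and more than 1 kb from any transcript start, when under 50% of its bases were soft-masked, and when it held neither of the runs named next. Soft-masked bases are those written in lower case in the assembly because a masking program marked them as repeats. Peaks with an exact run of 8 bases made of 4 GA or 4 CA dinucleotides on either strand were left out, as were peaks with 24 or more bases of exact period 3 to 6. Of the 944 intergenic peaks under the masking limit, 141 were left out for a GA or CA run alone, 132 for a period run alone and 289 for both.

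The study mapped HIRA by chromatin immunoprecipitation followed by sequencing (ChIPseq) in hearts of wild type CD1 embryos at E12.5. All material came from a single pool of 30 hearts from 2 pregnant mice, crosslinked with EGS and then formaldehyde, with no mutation and no treatment. There was 1 library made with the WC15 antibody against HIRA and 1 input library of the same pool. The heart at this stage holds cardiomyocytes, endocardium, epicardium and mesenchyme, and a pooled library cannot tell apart in which of them a region was bound. The pool counts as 1 sample. With 1 ChIP library there is no replicate error, no difference below was tested, and no p-value is given. The intervals given are 95% intervals that cover counting error only. The list holds positions alone, so the number of reads behind each peak is unknown.

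Histone chaperones escort histones and hand them to DNA. HIRA works in one such complex, with UBN1, CABIN1 and ASF1A, whose cargo is H3.3, the histone H3 variant used for nucleosome assembly throughout the cell cycle. H3.3 is known to mark active genes and distal regulatory elements, and it is also placed into repeated DNA by another chaperone, ATRX with DAXX. Regions between genes hold most enhancers, as well as tandem repeats of long unit (minisatellites), recently duplicated segments and stray copies of other genes, and masking programs leave many of these in upper case.

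Members were short and their sequence was of mixed kinds, which the following examples show. Coordinates are those of the mm10 build, read from the GRCm38.p6 assembly, and all sequences are of the plus strand, 5′ to 3′. Among the widest members were arrays of a repeated unit longer than the 6 bases the rule bars. Examples are printed from their first base, with every other stretch of the unit length in capitals. In the last example a shorter repeat puts the later stretches out of step with the units. The units are 30, 107, 40 and 36 bases long, in this order:
chr8:79920052-79920201: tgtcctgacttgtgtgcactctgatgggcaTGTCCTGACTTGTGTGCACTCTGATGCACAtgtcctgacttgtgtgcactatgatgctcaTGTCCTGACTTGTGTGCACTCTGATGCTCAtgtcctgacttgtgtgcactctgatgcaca
chr3:90368078-90368291: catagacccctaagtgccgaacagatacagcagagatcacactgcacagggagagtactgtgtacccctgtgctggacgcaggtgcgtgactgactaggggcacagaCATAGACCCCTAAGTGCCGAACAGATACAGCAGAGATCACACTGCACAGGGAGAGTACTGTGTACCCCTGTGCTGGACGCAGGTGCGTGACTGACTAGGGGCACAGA
chr13:12137995-12138194: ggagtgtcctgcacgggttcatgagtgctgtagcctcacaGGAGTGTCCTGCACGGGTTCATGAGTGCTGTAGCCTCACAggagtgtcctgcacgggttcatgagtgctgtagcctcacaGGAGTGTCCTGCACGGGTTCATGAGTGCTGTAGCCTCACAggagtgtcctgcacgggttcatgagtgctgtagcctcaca
chr10:118058335-118058514: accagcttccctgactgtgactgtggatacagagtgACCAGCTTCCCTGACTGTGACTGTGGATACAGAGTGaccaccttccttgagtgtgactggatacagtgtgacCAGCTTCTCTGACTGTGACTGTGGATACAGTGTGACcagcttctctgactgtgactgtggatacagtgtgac

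Other members were copies of sequence found elsewhere in the genome. In a group of 5 members on chromosome 14, all covered all or most of the same 160 bases, apart from a single base in 1 member. The first and the member with a difference are printed, with the differing base in capitals:
chr14:5231098-5231257: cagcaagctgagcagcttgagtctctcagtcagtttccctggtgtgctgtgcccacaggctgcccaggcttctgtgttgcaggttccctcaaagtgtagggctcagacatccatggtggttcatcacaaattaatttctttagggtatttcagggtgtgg
chr14:5293961-5294120: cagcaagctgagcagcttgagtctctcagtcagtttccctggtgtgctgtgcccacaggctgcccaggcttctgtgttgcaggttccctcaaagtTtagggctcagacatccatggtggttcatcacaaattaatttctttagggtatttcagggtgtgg
The second widest member matched a ribosomal RNA gene. Its first 200 bases are printed, with the base that differs from the gene in capitals:
chr6:3200787-3200986: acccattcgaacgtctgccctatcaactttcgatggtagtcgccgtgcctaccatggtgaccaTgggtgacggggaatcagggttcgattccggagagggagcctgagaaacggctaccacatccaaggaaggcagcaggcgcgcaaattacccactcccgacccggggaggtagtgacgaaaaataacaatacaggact
The member with the most repeated word is printed with all bases of its multi-copy words in capitals:
chr7:39668265-39668470: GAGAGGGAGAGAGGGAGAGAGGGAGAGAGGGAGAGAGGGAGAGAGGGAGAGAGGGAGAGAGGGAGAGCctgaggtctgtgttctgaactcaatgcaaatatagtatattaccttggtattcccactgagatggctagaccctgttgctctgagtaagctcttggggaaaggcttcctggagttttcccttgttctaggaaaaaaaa

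The remaining members had no repeated word. The most GC-rich of them up to 300 bases wide is printed with each CpG in capitals:
chr10:11492038-11492246: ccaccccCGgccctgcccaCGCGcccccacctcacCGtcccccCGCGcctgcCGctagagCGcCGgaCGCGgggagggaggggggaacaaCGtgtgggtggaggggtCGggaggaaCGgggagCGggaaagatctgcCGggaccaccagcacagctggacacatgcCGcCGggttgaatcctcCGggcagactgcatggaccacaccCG
Of the same kind were 8 members of at most 300 bases whose nearest protein-coding start, within 50 kb, belonged to a gene of the cardiac lists. They are printed with matches to the transcription factor motifs of the list given further on in capitals (the GA and CA repeats and the SMAD motif are not marked), and are named by that gene:
Myh7 chr14:54997162-54997325: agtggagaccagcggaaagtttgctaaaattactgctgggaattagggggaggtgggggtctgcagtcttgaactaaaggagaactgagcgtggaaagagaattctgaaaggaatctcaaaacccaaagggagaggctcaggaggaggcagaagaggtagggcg
Myl7 chr11:5894235-5894406: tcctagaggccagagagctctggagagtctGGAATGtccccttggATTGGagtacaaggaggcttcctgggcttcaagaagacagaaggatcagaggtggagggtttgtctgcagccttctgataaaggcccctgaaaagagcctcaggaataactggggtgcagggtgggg
Myl7 chr11:5893097-5893392: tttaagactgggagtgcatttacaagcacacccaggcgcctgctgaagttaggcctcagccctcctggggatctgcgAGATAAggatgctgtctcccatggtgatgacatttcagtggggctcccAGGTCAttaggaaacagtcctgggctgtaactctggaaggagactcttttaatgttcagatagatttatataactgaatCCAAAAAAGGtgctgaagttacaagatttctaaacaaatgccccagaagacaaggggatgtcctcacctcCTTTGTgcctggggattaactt
Hand2 chr8:57328247-57328410: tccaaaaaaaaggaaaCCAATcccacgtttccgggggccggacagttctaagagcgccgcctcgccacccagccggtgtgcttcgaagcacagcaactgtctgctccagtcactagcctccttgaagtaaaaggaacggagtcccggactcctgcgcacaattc
Gata5 chr2:180322973-180323267: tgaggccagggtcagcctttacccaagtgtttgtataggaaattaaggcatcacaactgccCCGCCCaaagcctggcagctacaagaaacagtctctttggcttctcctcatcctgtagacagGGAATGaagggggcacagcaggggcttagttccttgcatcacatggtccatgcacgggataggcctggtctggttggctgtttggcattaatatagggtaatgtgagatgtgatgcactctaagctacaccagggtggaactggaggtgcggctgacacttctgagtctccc
Msx1 chr5:37820056-37820243: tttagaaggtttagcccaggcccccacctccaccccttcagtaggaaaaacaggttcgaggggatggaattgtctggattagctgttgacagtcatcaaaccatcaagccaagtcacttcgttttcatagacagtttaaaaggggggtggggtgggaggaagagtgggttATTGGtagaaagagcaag
Atp2a2 chr5:122521163-122521333: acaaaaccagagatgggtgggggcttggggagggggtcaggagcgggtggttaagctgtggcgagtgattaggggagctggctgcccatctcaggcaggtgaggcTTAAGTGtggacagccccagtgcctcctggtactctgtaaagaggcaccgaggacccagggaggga
Casq2 chr3:102057475-102057649: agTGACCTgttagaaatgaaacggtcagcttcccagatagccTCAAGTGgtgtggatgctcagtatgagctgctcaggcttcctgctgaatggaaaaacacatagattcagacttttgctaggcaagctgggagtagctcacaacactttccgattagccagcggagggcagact

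The label under which these peaks were grouped, mostly unique sequence, held for part of them only. Each run of 32 bases (a word) in a peak was searched for on the 21 placed chromosomes, on either strand. Of the 382 members, 225 (58.9%, 53.9 to 63.7) had no word that occurred more than once. The remaining 157 (41.1%, 36.3 to 46.1) held a multi-copy word, and in 43 of them (11.3%) every word was multi-copy. In 103 members over 50% of the words were multi-copy. They are therefore described here as intergenic, mostly unmasked peaks.

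To set a level for such values, the genome was tiled in windows of 150 bases and every window that passed the same rule was kept. These were 5286249 of 18170132 windows, or 793 Mb, and are called eligible windows below. All peaks were at least 158 bases wide, so the central 150 bases of a peak could be set beside a window. A multi-copy word was found in the central 150 bases of 36.9% of members (32.2 to 41.9) and in 11.6% of every 100th eligible window (6117 of 52863). The central 150 bases were multi-copy throughout in 15.2% of members and in 1.93% of those windows. Both shares of the members lay above those of the windows by more than counting error. Among the 1821 intergenic peaks with 50% or more soft-masked bases and none of the barred runs, 99.7% held a multi-copy word over the whole peak. Among 522 intronic peaks of the same masking and run limits the share was 40.8% (36.7 to 45.1), and its interval overlapped that of the members. How the study's alignment placed reads that fit several copies is not given in the sources used here, and its part in these shares was not tested.

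The copies lay in different places. In 83 members (21.7%) every copy of every multi-copy word lay within 10 kb of the peak, and in 74 members (19.4%) at least 1 word had a copy farther away. These are called locally repeated and dispersed members, and the 225 members with no multi-copy word are called single-copy members. That name holds for exact words of 32 bases alone, as 58.4% of the 382 members held a multi-copy word of 24 bases. Of the 522 intronic peaks, 31.03% were locally repeated and 9.77% dispersed, so that a similar share with multi-copy words was made up differently.

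Width differed between these kinds of sequence, as the plot of width and GC content by kind shows. Over all members it ranged from 158 to 867 bases, with a median of 188 (183 to 193) and quartiles of 169 and 214. The median of all 6624 peaks was 185 bases. Single-copy members had a median width of 180 bases (177 to 185) and none was wider than 419 bases. Locally repeated members had a median of 214 bases (204 to 258) and dispersed members of 193 bases (183 to 206). Widths of 250 bases or more were found in 8.00% of single-copy, 41.0% of locally repeated and 23.0% of dispersed members. In all, 69 members (18.1%) were that wide, with 14.5 to 22.2% as the interval. The share was 19.5% (16.4 to 23.2) of the intronic peaks, 14.4% of the soft-masked intergenic peaks and 11.3% of all peaks. A total of 51 of the 69 held a multi-copy word.

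**Figure D1:**
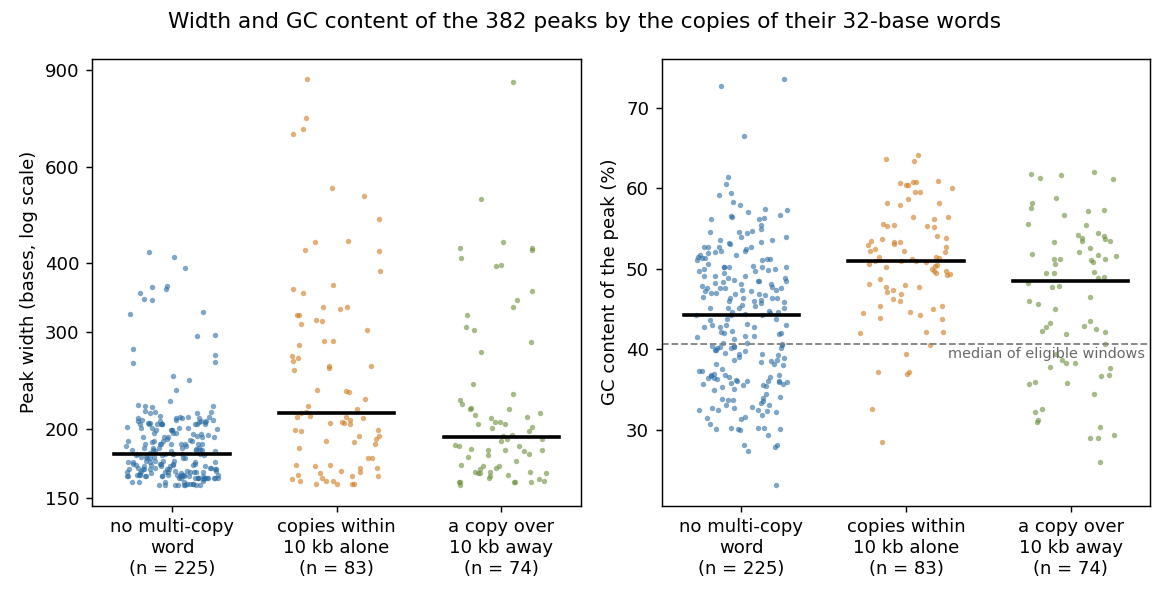
Width in bases (left, log scale) and GC content in percent (right) of each of the 382 peaks, split by whether their 32-base words have no second copy in the genome, copies within 10 kb alone, or a copy farther away. Each point is a peak and black lines are medians; no single-copy member was wider than 419 bases, and the medians of GC content were 44.3%, 51.0% and 48.6%, against 40.7% for eligible windows.

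The locally repeated members were mainly tandem arrays. A tandem unit was called when at least 80% of the bases of a peak equalled the base a fixed number of places before, for a smallest such number of 7 or more. Over the whole peak this held for 63 members (16.5%), of which 62 were locally repeated. The unit lengths ranged from 8 to 129 bases with a median of 29, and 24 of the 63 arrays had units of 20 to 29 bases. In the central 150 bases a unit of 7 to 75 bases was found in 61 members (15.97%, 12.6 to 20.0) and in 0.110% of eligible windows. The share was 23.0% (19.6 to 26.8) among the intronic peaks and 2.42% among the soft-masked intergenic peaks. Of the 96 widest members 36.5% held such a unit, against 10.4% of the 96 narrowest. No soft-masked base was present in 89.2% of the locally repeated members, against 23.6% of the single-copy members.

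The 5 widest members were all repeated or copied sequence. The widest, chr1:133594531-133595397, was 867 bases long with a unit of 51 bases in its centre, and 1 of its words occurred 33 times, all within 10 kb. Its nearest protein-coding start was that of Snrpe, which encodes a protein of the spliceosome, 15.0 kb away. The next, chr6:3200787-3201640, was 854 bases long and is described with the copied sequences. chr8:79920052-79920788, of 737 bases, was the array of 30 bases printed above and lay 69.9 kb from the start of Hhip, an inhibitor of hedgehog signalling. chr3:90368078-90368779, of 702 bases, was the array of 107 bases and lay 17.0 kb from the start of Gatad2b, a subunit of the NuRD complex. chr13:12137995-12138683, of 689 bases, was the array of 40 bases, in which every word was multi-copy. It lay 31.4 kb upstream of Ryr2, which encodes the calcium release channel of the sarcoplasmic reticulum.

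Few members shared words with one another. In all, 28 members fell into 9 families linked by shared words, and the 3 largest families had 5 members each. The family on chromosome 14 lay between chr14:5231098 and chr14:7515694, and a word of it occurred 52 times in the genome. Of the 160 bases compared, 3 further members matched the first exactly and 1 differed at 1 base. The other two families of 5 were spread over several chromosomes, with GC contents from 49.02% to 62.05% and at most 14 copies of a word. On the X chromosome, 3 members formed a family with 24 copies of a word. Few members had words of very high copy number. A word in 100 or more copies was held by 10 members, and the most copies, 1491, were those of a word in the purine run that opens chr7:39668265-39668470, printed above.

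Some members resembled annotated transcripts of genes elsewhere. A match of at least 80% identity over at least 50% of the peak was found for 17 members. chr6:3200787-3201640 matched the ribosomal RNA gene CT010467.1, at chr17:39846353-39848827 on the minus strand, over all 854 bases with 16 differences (98.1% identity). This member lay 151 kb from an assembly gap or chromosome end and held 61 CpG. chr8:3754427-3754595, a single-copy member, matched Gm42418, a non-coding RNA annotated inside the span of that ribosomal RNA gene on the other strand, at 85.1% identity over 148 bases. chr19:40119650-40119890 matched Lars2, which encodes the mitochondrial leucyl-tRNA synthetase, at 96.7% identity over 180 bases. Of the members on chromosome 4, 3 matched Gm3892, Gm13301 and Gm21093 at 100% identity over their whole width, and these genes lie on chromosome 4 as well. The 16 members other than the ribosomal copy matched between 80.2% and 100% of the aligned bases. No complete 28S ribosomal RNA gene was used here, so matches to it were not looked for.

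GC content was higher in members than in eligible windows. The median was 46.9% (45.4 to 47.9), with single peaks from 23.1% to 73.6%, against 40.7% for the windows. It was 48.7% for the intronic peaks, 45.1% for the soft-masked intergenic peaks and 45.6% for all peaks. Single-copy members had a median of 44.3% (42.0 to 46.0), locally repeated members of 51.0% (49.8 to 52.7) and dispersed members of 48.6% (43.2 to 51.2). The number of members per Mb of eligible windows went up with GC content from 0.172 (0.0824 to 0.316) at 25 to 30% GC to 3.58 (1.96 to 6.01) at 60 to 65% GC. For single-copy members alone it went from 0.120 to 0.835 at 55 to 60% GC, and the 2 such members at 60 to 65% GC gave 0.512 per Mb with an interval of 0.0620 to 1.85. At 0.482 members per Mb (0.435 to 0.533) over all eligible windows, members were sparse throughout.

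**Figure D2:**
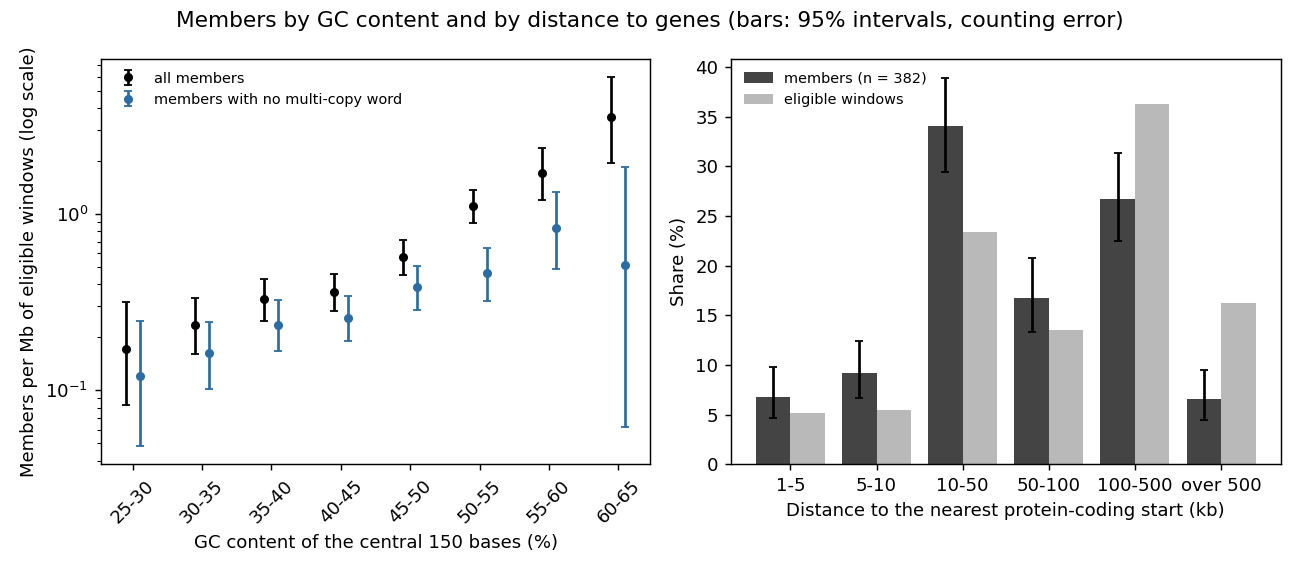
Left: members per Mb of eligible windows (log scale) by GC content of the central 150 bases, for all members (black) and single-copy members (blue), with 95% Poisson intervals. Right: share of the 382 members (dark bars, 95% Wilson intervals) and of eligible windows (light bars) by distance to the nearest protein-coding transcript start; members exceeded windows from 5 to 50 kb and fell below them beyond 100 kb.

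The higher GC content belonged in part to the surroundings of the peaks. The mean GC content of both adjoining 150-base flanks had a median of 44.7% (44.0 to 45.3) for members and of 40.3% for eligible windows. The members exceeded their own flanks by a median of 1.28 percentage points (0.560 to 2.00). A peak was richer in GC than each of its flanks in 38.7% of members (34.0 to 43.7) and in 28.9% of eligible windows. The same held for 40.8% of the intronic peaks, 44.6% of the soft-masked intergenic peaks and 39.1% of all peaks. For locally repeated members the share was 54.2% (43.6 to 64.5), and for single-copy members it was 32.4% (26.7 to 38.8), an interval that holds the value of the windows. The profile of GC content around the midpoint shows the same split. Whether library amplification or sequencing favoured GC-rich fragments was not tested, since no coverage of either library was used here.

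**Figure D3:**
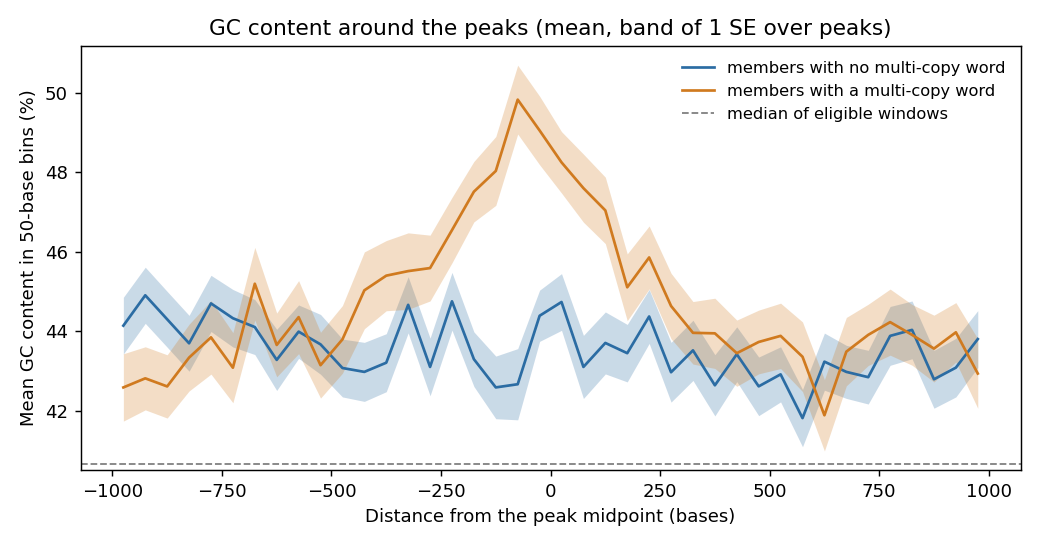
Mean GC content in percent in 50-base bins from 1000 bases before to 1000 bases after the peak midpoint, for the 225 members with no multi-copy word and the 157 with one, with bands of 1 SE over peaks; the dashed line is the median of eligible windows (40.7%). Members with a multi-copy word rise towards the midpoint, whereas single-copy members show no such rise and lie between 41.8% and 44.9%, above the dashed line throughout.

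CpG dinucleotides were more frequent in members as well. The central 150 bases held 13.1 CpG per 1000 bases in members and 6.89 in eligible windows. At least 5 CpG in 150 bases were found in 12.3% of members (9.38 to 15.98) and in 2.03% of windows. They were found in 15.3% of the intronic peaks, 3.68% of the soft-masked intergenic peaks and 6.10% of all peaks. The share was 27.0% (18.2 to 38.1) among dispersed, 8.89% among single-copy and 8.43% among locally repeated members. The CpG-rich single-copy member printed above, chr10:11492038-11492246, belonged to the 20 single-copy members with at least 5.

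Members lay closer to genes than eligible windows did. The median distance to the nearest protein-coding transcript start was 50.3 kb (39.2 to 62.9), against 113 kb for the windows. It was 16.8 kb for the intronic peaks, 115 kb for the soft-masked intergenic peaks and 43.6 kb for all peaks. A start lay within 50 kb of 50.0% of members (45.0 to 55.0) and of 34.0% of windows. When the windows were weighted to the GC contents of the members, the share of windows was 42.3%. The weighting covered GC content alone, whose part in the distances was not tested. Only 6.54% of members (4.47 to 9.48) were over 500 kb from a protein-coding start, against 16.2% of windows, or 10.8% after the same weighting. Single-copy, locally repeated and dispersed members had median distances of 52.3, 40.7 and 52.2 kb with overlapping intervals. The peak lay upstream of the nearest start in 55.5% of members (50.5 to 60.4). The annotation mattered for the term intergenic, as 55 members (14.4%) lay inside a gene of the RefSeq annotation.

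Among the genes with a member nearby were genes of the contractile apparatus, of calcium handling and of heart development. Of 382 members, 14 (3.66%, 2.20 to 6.06) had a start of one of 160 listed genes no farther than 50 kb away, as the plot of distances by gene shows. The share of eligible windows within the same distance was 0.557%, or 0.835% when weighted to the GC contents of the members. These lists were chosen with earlier results of these data known, and the counts per list are small. For 35 sarcomere and Z-disc genes there were 4 members within 50 kb (1.05%, 0.408 to 2.66) against 0.0855% of windows. These were neighbouring pairs at Myl7 and Myh7, 1.08 and 7.67 kb apart, which the interval counts as 4 separate peaks. For 31 ion channel and calcium handling genes there were 5 (1.31%, 0.560 to 3.03) against 0.117% of windows. The 44 cardiac transcription factor genes had 2 members (0.524%, 0.144 to 1.89) against 0.175%, which lies inside the interval. The 32 genes of valves, cushions and the epithelial to mesenchymal transition had 3 (0.785%, 0.267 to 2.28) against 0.139%. The 11 genes of the HIRA complex and H3.3 had 0 of 382, against 0.0199% of windows. A count of 0 allows a share of up to 0.785% by the limit of 3 counts, or 0.996% by the Wilson bound. It therefore cannot tell this list from the windows. By the nearest start alone, with no limit on distance, the channel, valve and transcription factor lists differed less from the windows. The sarcomere list did not. The sarcomere list was nearest to 1.57% of members (0.722 to 3.38) and 0.0825% of windows, and the channel list to 1.31% (0.560 to 3.03) and 0.469%. For the valve list these were 1.05% (0.408 to 2.66) and 0.661%, and for the transcription factors 0.785% (0.267 to 2.28) and 0.899%, both inside the interval. Shares for other HIRA peaks are not given here, so these values cannot be called particular to the members.

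**Figure D4:**
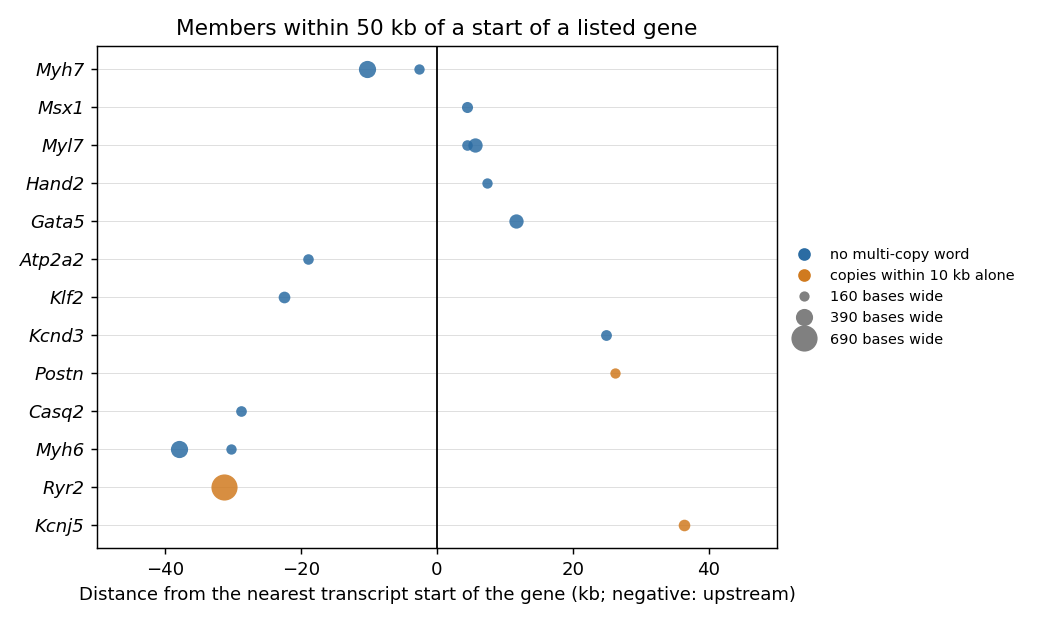
Members within 50 kb of a transcript start of a listed gene, by their distance from that start in kb (negative is upstream). Each point is a peak, its size follows its width and its colour the copies of its words; both members upstream of Myh7 are drawn again for Myh6, and the peak upstream of Ryr2 is the widest, at 689 bases.

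The sarcomere genes concerned were Myh7 and Myl7. Myh7 encodes the slow beta myosin heavy chain of the ventricle and lies next to Myh6, which encodes the alpha chain. One member, chr14:54997162-54997325, lay 2.62 kb upstream of Myh7 and 30.3 kb upstream of Myh6. It was 164 bases wide with 50.6% GC, below the 57.7% of its flanks, and held no match to the motifs in capitals. A second, chr14:55004714-55005105, was 392 bases wide with 53.3% GC and lay 10.3 kb upstream of Myh7. Both were single-copy. Both lay inside a gene of the RefSeq annotation and would be no members under it, which would leave 2 of the 4 members of the sarcomere list within 50 kb. Myl7 encodes the atrial regulatory myosin light chain, and 2 single-copy members, 1.08 kb apart, lay 4.46 and 5.54 kb past its start, beyond the end of the gene. The wider of these, chr11:5893097-5893392, held a match to the CArG box of SRF, a regulator of muscle genes, and 1 each to the GATA, SOX and nuclear receptor motifs. The narrower, chr11:5894235-5894406, held a TEAD and an NFY match. Myom2, which encodes an M-band protein, was also the nearest gene of 2 members, at 342 and 401 kb.

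Of the calcium handling and channel genes, Atp2a2 encodes the calcium pump of the sarcoplasmic reticulum. The single-copy member chr5:122521163-122521333 lay 19.02 kb upstream of it, with 61.4% GC against 47.7% in its flanks and a match to the NKX2-5 motif. chr3:102057475-102057649 lay 28.9 kb upstream of Casq2, which encodes the cardiac calsequestrin, and held an NKX2-5 match as well. In the central bases alone, this motif was found in 8.12% of members and 9.42% of eligible windows. Matches at named genes were sought over the whole peak, which leaves more room for one. Whether a single match sets a member apart from the windows was not tested. The member upstream of Ryr2 was the locally repeated array of 40 bases. A further array, of 15 bases, lay 36.4 kb past the start of Kcnj5, which encodes a potassium channel of the atrium, at chr9:32307777-32307982. chr3:105693823-105694002 lay 24.9 kb past the start of Kcnd3, which encodes another potassium channel, but was closer to Ddx20, at 6.34 kb.

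The transcription factor and valve lists had 5 members within 50 kb in all. Hand2, a transcription factor of the second heart field and right ventricle, had the single-copy member chr8:57328247-57328410 at 7.35 kb past its start. That member had 56.7% GC and 11 CpG in 164 bases. Gata5, a transcription factor of the endocardium, had chr2:180322973-180323267, of 295 bases, at 11.6 kb past its start. Msx1, a homeobox gene expressed in the cushions, had chr5:37820056-37820243 at 4.43 kb. Postn, which encodes the matrix protein periostin, had the tandem array chr3:54415002-54415164 with a unit of 20 bases at 26.2 kb. Klf2, a transcription factor that responds to shear stress in the endothelium, had chr8:72296340-72296548 at 22.6 kb upstream, although Gm10282 was closer.

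Of 18 genes that the study names, for differing reasons, most had no member within 50 kb. Only 0.0513% of eligible windows lay that near to a start of these genes, against 2 members, or 0.524% (0.144 to 1.89). With so few windows, the absence of a member at most of these genes cannot be read as a trait of them. Myh7 and Myh6 were the only ones with a member within 50 kb, and with members inside RefSeq genes left out there was none. The study gives Myh6 and Myh7 as examples of heart genes whose expression did not change after loss of Hira. Nkx2-5, which encodes a cardiac homeobox factor, had chr17:26709934-26710115 at 132 kb, but that peak was closer to Crebrf, and a word of it occurred 115 times in the genome. For Krt19, which encodes a keratin, the nearest member was 599 kb away. For the other genes of that list the distance was between 1255 kb and 27955 kb, among them Tnni2 and Tnnt3 at 19574 and 19631 kb. The HIRA peak between Tnni2 and Tnnt3 holds a GA run of the kind the rule bars and is no member.

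Members were spread over genes rather than gathered at a few. The 382 members had 360 different protein-coding genes as the nearest. Only Ccl27a and Xylt1, a xylosyltransferase gene, were nearest to 3 members, and 18 genes to 2. The 3 members near Ccl27a were all multi-copy, and 2 of the 3 near Xylt1 were. Another peak of the list lay within 10 kb of 25 members (6.54%, 4.47 to 9.48), against 8.02% of all peaks, and another member within 10 kb of 8. Within 100 kb of an assembly gap or chromosome end lay 8 members (2.09%, 1.06 to 4.08) and 1.18% of eligible windows.

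The chromosomes differed in the density of members. Chromosome 2 had 45 members at 0.859 per Mb of eligible windows (0.627 to 1.15), and chromosome 19 had 13 at 0.812 (0.432 to 1.39). Chromosome 5 had 11 at 0.250 (0.125 to 0.447) and the X chromosome 14 at 0.267 (0.146 to 0.448), and the intervals of these did not reach that of chromosome 2. The labels give no sex of the embryos, so the dose of the X chromosome in the pool is unknown. The Y chromosome had 158 peaks and no member, but its eligible windows covered 1.81 Mb alone.

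Motifs of cardiac and general transcription factors were found in members at shares mostly near those of the windows, as the plot of motif shares shows. Both strands of the central 150 bases were searched for 21 motifs. Overlaps between motifs were allowed. For 17 of the 21 motifs the interval of the members held the share of the eligible windows. The GATA motif AGATAA was found in 8.90% of members (6.44 to 12.2) and 11.9% of windows, the NKX2-5 motif TNAAGTG in 8.12% (5.78 to 11.3) and 9.42%, and the T-box motif AGGTGT in 7.59% (5.34 to 10.7) and 7.36%. The TEAD motif GGAATG was found in 8.90% and 8.70%. The shares of members lay above the windows for the E-box CAGCTG, with 8.64% (6.22 to 11.9) against 5.62%, the SMAD motif CAGAC, with 30.9% (26.5 to 35.7) against 26.0%, and the SP1 GC box GGGCGG, with 2.36% (1.24 to 4.42) against 0.997%. They lay below for the NFY motif CCAAT, with 15.97% (12.6 to 20.0) against 23.2%. Among the 225 single-copy members 20.0% held CCAAT, which moved the ratio to the windows from 0.689 to 0.863. The shares were not adjusted for GC content, which differed between members and windows, and its part in them was not tested. The MEF2, CRE and YY1 motifs had no match in 382 members, and windows held them in 0.410%, 0.0682% and 0.220%. The CTCF core motif had 1 match.

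**Figure D5:**
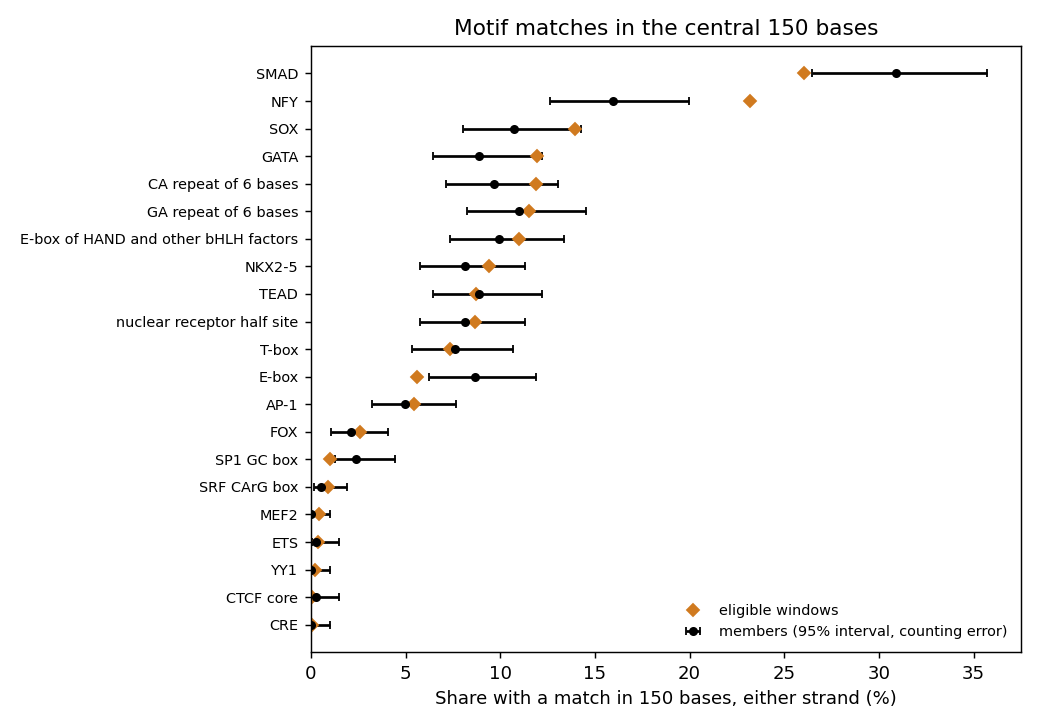
Share of the 382 members (black points, 95% Wilson intervals) and of eligible windows (orange diamonds) with a match to each motif in the central 150 bases on either strand. The diamonds lie outside the interval of the members for the E-box, SMAD and SP1 motifs (members higher) and for NFY (members lower, although 20.0% of single-copy members held NFY).

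Shorter GA and CA runs than those the rule bars had intervals that held the shares of the windows. GAGAGA was found in 11.0% of members (8.24 to 14.5) and 11.5% of windows, and CACACA in 9.69% (7.11 to 13.1) and 11.9%. Both shares are bounded from above by the rule, and not equally. It bars longer runs over the whole peak in members but over 150 bases in windows. The shares therefore cannot be read as a lack of such repeats. A run of at least 20 purines or pyrimidines was found in 3.40% of members (2.00 to 5.73) and 1.64% of windows, and in 10.8% of the dispersed members. Over all words of 6 bases, 1116 were held by at least 20 members. The 10 with the highest ratio of the share of members to that of windows all had at least 4 G or C. The first were GCCCCC, in 8.12% of members and 3.47% of windows, and GGCCCC, in 7.33% and 3.32%, and only these exceeded a ratio of 2. The ratio was 1.73 for GAGCCC, 1.68 for GGAACC, 1.67 for ACCAGC, 1.65 for GCTCCC and for AGGCCC, 1.60 for CCAGGC, and 1.58 for CACACC and for CCAAGC. The floor of 20 members and the ranking used these same shares, which were not adjusted for GC content.

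The masking limit cut through a continuous range. Soft-masked bases made up 11.5% of the median member, and 137 members had none. Just inside the limit lay chr17:44161960-44162142, with 49.2% of its bases masked, 34.4% GC and no multi-copy word, and chr14:34154496-34154660, with 49.7% masked, 47.9% GC and a word in 321 copies. Just outside lay chr4:54038719-54038883, with 50.3% masked, 42.4% GC and a word in 38 copies, and chr6:88072972-88073145, with 51.7% masked, 46.0% GC and no multi-copy word.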

How the data were processed

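The deposited file lists the positions of HIRA peaks and nothing else. Per the study's methods, paired-end reads were aligned to mm10 with bowtie2, poor quality and duplicate reads were removed, and the authors called peaks with the MACS algorithm inside Strand NGS, with the input library as the control per the file header. The file header and the methods give different p cutoffs, so which was used is unclear. Read depth and the treatment of reads with several placements are not given in the sources used here. The embryos were CD1, whereas the assembly is of another strain. No file of the input library itself was used here. The placed chromosomes of GRCm38.p6 and mm10 are the same sequence, and soft-masking was read from the NCBI copy of that assembly. Other copies of mm10 may mask some bases differently, which could move peaks near the 50% limit into or out of the members.

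Alternatives were another annotation, masking limit, run rule, word length, window, flank length and subset of peaks. Start positions were read as 0-based. Peaks and windows of 150 bases were classified with GENCODE M21 and, as an alternative, RefSeq genes. Words of 32 bases were counted on both strands of 21 chromosomes. Copies of transcripts were sought with blastn 2.17.0 against GENCODE M21 transcripts. Shares have Wilson intervals, medians order-statistic intervals and densities exact Poisson intervals, at 95%. The members, gene lists and motifs were chosen with earlier results of these data known, and the split by place of copies, the tandem unit and the transcript matches were added after the data were seen. Peaks were named by fixed rules: the 5 widest, those nearest the masking limit, those nearest to listed genes, the member with most copies, the largest family, and the 10 most raised words of 6 bases. The rule of the largest family left a tie of 3 families of 5 members, of which that on chromosome 14 was taken by choice. The members named for transcript matches, the other families, and the printed array of 36 bases and CpG-rich member were chosen after their values were seen. Members on chromosome 18 were left out when the printed arrays, the member with most copies and the CpG-rich member were picked. For the genes nearest to most members, ties left 2 with 3 members, and of those with 2 the listed ones were named. Tandem units, copies of 32-base words, the soft-masked share, the barred runs and the motif search were tested on simulated sequence. The other sequence measures were not. Calculations used Python 3.11.15 with numpy 2.4.6 and scipy 1.17.1.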

Additional observations from a re-analysis of the deposited data

How the results depend on the processing

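Peak positions came from 1 library, with no depth, no height and no second sample, so no value has a replicate error and peaks near the detection limit cannot be told from stronger ones. Of the main values recomputed under another choice, 58 stayed within the interval of the reported value, or within 1.5 times for the number of members, and 21 did not. RefSeq or protein-coding genes alone, either phase of the dinucleotide run, the stricter period run, merged neighbours, autosomes alone and other tilings moved no value out of it.

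With a soft-masked limit of 25% the median GC content was 48.5% and the share richer in GC than both flanks 45.7%. Among the 200 members above the median width of the list, the median width was 210.5 bases, the median GC content 48.6%, the multi-copy share 51.5%, the density 0.252 per Mb and the share richer than both flanks 44.5%. Among the 225 single-copy members these were a width of 180 bases, a GC content of 44.3%, a density of 0.284 per Mb and a share richer than both flanks of 32.4%. Leaving out locally repeated members, chosen after seeing the data like the use of the central 150 bases for the multi-copy share, gave a GC content of 45.1%, a multi-copy share of 24.7% and a density of 0.377 per Mb. The multi-copy share was 58.4% with words of 24 bases and 34.0% with words of 48. The median distance was 16.9 kb to any GENCODE start and 18.1 kb to any RefSeq start. With flanks of 500 bases, 43.8% of members were richer than both. Each of these settings changes the peaks, word length, starts or flanks counted, and no other cause was tested. Of 18 motif ratios, 4 moved out of their interval among single-copy members, namely SOX, from 0.769 to 1.05, NFY, from 0.689 to 0.863, T-box, from 1.03 to 0.664, and the single CTCF match, which was lost. SOX fell to 0.430 among members above the median width, and CArG to 0 in the central 100 bases. The list shares by nearest start stayed within their intervals by gene body and within 100 kb. Of the shares within 50 kb, recomputed after seeing the data among single-copy members and among the 327 outside RefSeq genes, the share of the genes the study names went from 0.524% to 0 outside RefSeq genes, and the others stayed within their intervals. The windows were not recomputed for these. No paired analysis was possible because the study has 1 ChIP library.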
